A study of Mus musculus with 8 samples.

Results

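The 69 genes described here are named for RNA-binding proteins and their kinases, among 21212 probe sets (each one gene's probes on an array) measured in mouse hind limb muscle. The rule that picks them uses gene symbols, and the set itself was proposed with earlier results of these data known. They comprise 11 SR proteins (Srsf genes), 19 hnRNPs (Hnrnp genes), 34 RBM proteins (Rbm followed by a number), the 4 CLK kinases (Clk1 to Clk4) and Cirbp. The hnRNPs counted include Hnrnpa1l2-ps, a pseudogene by its symbol. Gastrocnemius and plantaris muscles came from female C57BL/6J mice bought at 7 weeks of age, with no transgene or deletion in either group. In unloaded muscle (HU, 4 mice) the hind limbs had been lifted off the cage floor for 5 days, a model of disuse atrophy. In weight bearing muscle (WB, 4 mice) the hind limbs carried the body as usual. Each of the 8 RNA samples was hybridised to its own array, and the values below are deposited log2 expression values, on which a difference of 1 is a doubling.

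SR proteins carry a domain rich in arginine and serine, bind exonic sequences and mostly favour inclusion of the exon they bind. hnRNPs coat newly made transcripts and often act against SR proteins on the same exon, while the RBM proteins are a mixed group, named only for an RNA-binding domain, that includes spliceosome parts, muscle splicing regulators and mRNA stability factors. CLK kinases phosphorylate the arginine and serine domain of SR proteins and so release them from nuclear stores. Cirbp and Rbm3 are the classic cold-inducible RNA-binding proteins, which are raised by mild cooling and bind many mRNAs. The arrays measured the summed level of each gene's transcripts, so splicing itself was not measured.

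The muscle label held on all arrays: Ckm, the muscle creatine kinase, averaged 13.14 in unloaded and 13.17 in weight bearing muscle, and Acta1, skeletal actin, 13.11 and 13.25. Array medians lay between 6.279 and 6.332, and no array stood apart from its group, with correlations of 0.9962 to 0.9973 within groups and 0.9917 to 0.9936 between them. Over all probe sets the median change was 0.04. Markers of other cells differed between the groups. Fibroblast markers fell in 7 of 10 cases in unloaded muscle and none rose (limma). With unadjusted p values under 0.05 the counts were 8 and 0. An unequal-variance t-test, which stands for the t-test of the study's methods, gave 7 and 0. The summed linear level of the fibroblast markers was 9594 to 10011 on unloaded arrays and 13819 to 15707 on weight bearing arrays. Macrophage markers fell in 6 of 10 cases and none rose (limma; 6 and 0 unadjusted, 5 and 0 with the t-test), with sums of 1208 to 1481 and 1608 to 1945. Of all probe sets 11.0% were lower and 12.8% higher by limma, and 6.48% and 6.57% with the t-test. Unadjusted, 3262 and 4669 of 21212 were lower and higher. The 8 endothelial markers summed to 3855 to 3975 on unloaded and 4036 to 4516 on weight bearing arrays. Sums of the 10 muscle fibre markers were 65131 to 66569 and 70036 to 72507. Of these 10, 3 were lower and 0 higher (limma; 3 and 1 unadjusted, 3 and 1 with the t-test). The called ones were Myh2 (log2 change -0.79, adjusted p = 9.3e-04), Casq1 (-0.32, adjusted p = 6.2e-04) and Acta1 (-0.15, adjusted p = 0.0288). Sums over 7 satellite cell markers (1095 to 1123 and 1024 to 1234) and 3 erythroid markers (530 to 1007 and 385 to 720) overlapped between the groups, while those of 6 lymphocyte markers were low in both (152 to 168 and 145 to 155). The part of these other cells in the results below was not tested. In whole muscle RNA, fewer cells of a type and less RNA per cell cannot be told apart.

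Of the 69 members, 13 were higher and 5 lower in unloaded than in weight bearing muscle (limma, adjusted p under 0.05 over all probe sets), and 51 were not called. These were 18.8% and 7.25% of the members, beside 12.8% called higher and 11.0% called lower among all probe sets. By the unequal-variance t-test 10 were higher and 2 lower, beside 6.57% and 6.48% of all probe sets. The changes were small: 60 members differed by less than 1.2-fold, and the median size of a change was 0.11 on the log2 scale, the same as over all probe sets. Unloaded arrays lay all above weight bearing arrays for 17 members and all below for 8, against 15.5% and 12.0% of all probe sets. The count of higher members was 7 without unloaded replicate 3, weight bearing replicate 1 or weight bearing replicate 2. The count of lower members was 1 without unloaded replicate 2, 2 without unloaded replicate 3 or weight bearing replicate 1, and 3 without weight bearing replicate 3. The calls that held in every leave-one-out fit were those of Cirbp, Clk2, Clk4, Rbm33, Rbm38, Rbm42, Hnrnpu and Hnrnpul1.

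**Figure D1:**
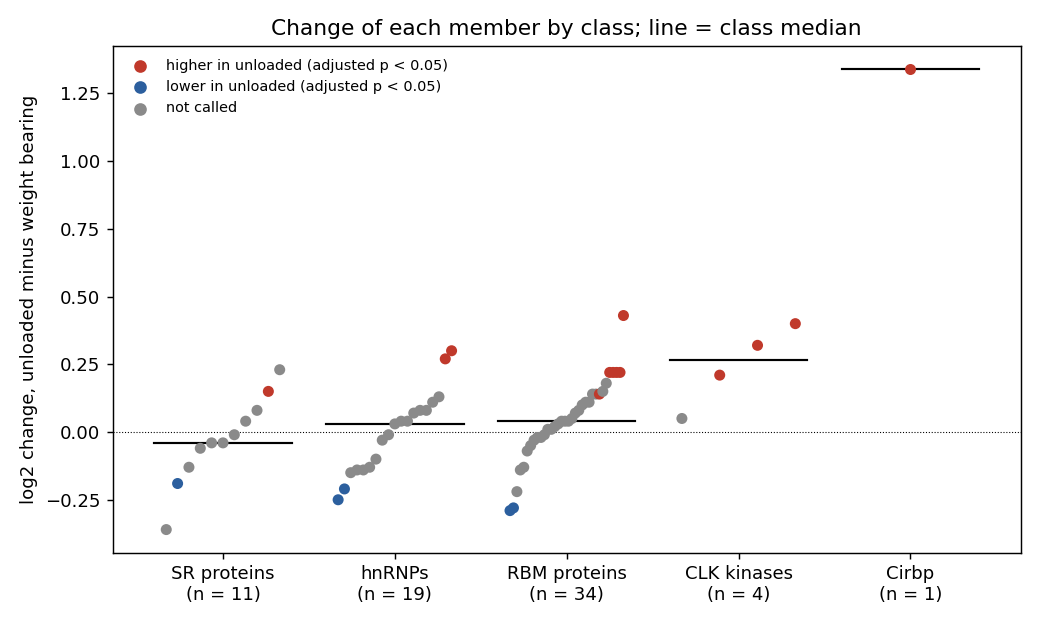
Log2 change (unloaded minus weight bearing, y axis) of each of the 69 members, in columns by class and sorted within a class, with red points for members called higher, blue for lower, grey for not called, and a line at each class median. Cirbp stands alone at 1.34, the 4 CLK kinases all lie above 0, and SR proteins, hnRNPs and RBM proteins spread on both sides of 0.

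The promoter windows of the members the results turn on are shown here so that their sequence can be read beside their values. RefSeq windows (build GRCm38.p6, each 300 bases long, reaching from upstream to just past a transcription start) were matched by Entrez ID for 59 of the 69 members. Rbm3 and Clk1 were among the members without a matched window. Capitals mark matches, on either strand, to a set of motifs: the GC box GGGCGG, the CCAAT box, the E-box CACGTG, the cyclic AMP response element TGACGTCA, the forkhead site GTAAACA, the heat shock element core GAANNTTC, TCCCCGCC, which has been described as a mild-cold responsive element of Cirbp, and the kappa B consensus. All 5 windows lie on the plus strand, Cirbp has a second start further downstream that is not printed, and the genes were chosen for display after their values were seen.
Cirbp chr10:80167589-80167888: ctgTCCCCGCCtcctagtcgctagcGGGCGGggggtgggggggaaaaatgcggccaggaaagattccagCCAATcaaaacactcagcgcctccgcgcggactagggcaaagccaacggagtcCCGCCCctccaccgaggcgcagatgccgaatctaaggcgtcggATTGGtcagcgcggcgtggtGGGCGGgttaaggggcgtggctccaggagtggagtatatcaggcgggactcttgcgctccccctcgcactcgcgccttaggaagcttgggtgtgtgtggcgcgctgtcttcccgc
Clk4 chr11:51262864-51263163: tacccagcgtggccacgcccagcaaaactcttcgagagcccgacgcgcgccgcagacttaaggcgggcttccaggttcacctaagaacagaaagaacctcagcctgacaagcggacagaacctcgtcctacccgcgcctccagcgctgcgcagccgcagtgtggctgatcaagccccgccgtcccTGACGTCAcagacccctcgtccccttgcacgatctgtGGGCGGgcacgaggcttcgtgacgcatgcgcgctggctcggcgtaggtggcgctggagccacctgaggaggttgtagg
Clk2 chr3:89164545-89164844: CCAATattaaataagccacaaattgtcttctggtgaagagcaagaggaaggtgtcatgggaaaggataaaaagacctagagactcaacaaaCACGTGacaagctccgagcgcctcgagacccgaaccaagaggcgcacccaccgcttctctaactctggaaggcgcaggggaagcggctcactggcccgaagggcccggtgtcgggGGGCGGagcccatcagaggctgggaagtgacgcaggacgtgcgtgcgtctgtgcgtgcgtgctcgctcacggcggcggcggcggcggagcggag
Rbm33 chr5:28316939-28317238: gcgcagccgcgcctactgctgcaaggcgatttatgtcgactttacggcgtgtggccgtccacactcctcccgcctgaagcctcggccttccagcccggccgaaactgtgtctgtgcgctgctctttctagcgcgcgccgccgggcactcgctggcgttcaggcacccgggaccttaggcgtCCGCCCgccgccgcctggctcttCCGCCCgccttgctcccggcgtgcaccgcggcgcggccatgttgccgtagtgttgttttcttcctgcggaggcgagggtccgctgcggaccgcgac
Rbm38 chr2:173021652-173021951: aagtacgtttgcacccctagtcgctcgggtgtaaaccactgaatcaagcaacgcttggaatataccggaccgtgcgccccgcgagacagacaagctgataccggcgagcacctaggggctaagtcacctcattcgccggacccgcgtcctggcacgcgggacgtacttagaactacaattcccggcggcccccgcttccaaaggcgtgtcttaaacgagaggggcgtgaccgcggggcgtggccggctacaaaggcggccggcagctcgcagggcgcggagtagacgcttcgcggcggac
The Cirbp window held TCCCCGCC once, and 4 of the 59 matched members had this motif. It was present in 5.41% of the 74 member windows and in 5.38% of all 32851 windows. TGACGTCA was in the Clk4 window and in that of no other matched member (1.35% of member windows, 1.79% of all), and the E-box of the Clk2 window was found in 7 members in all (9.46% and 7.15%). The GC box was the commonest motif, in 64.9% of member windows and 35.7% of all windows, and occurred in 8 of 11 members called higher, 4 of 5 called lower and 26 of 43 not called. CCAAT was in 45.9% of member windows and 37.4% of all, GTAAACA in 4.05% and 3.65%, GAANNTTC in 6.76% and 7.86%, and the kappa B consensus in 8.11% and 8.46%. The kappa B matches fell in 5 members, none of them called. With so rare a motif and so few called members, that count decides nothing. The promoter regions in which the study looked for Bcl-3 peaks reach well beyond these windows, and sites outside the windows were not searched. TCCCCGCC and the GC box can overlap where the letters run on, and in the Cirbp window they did not. The Rbm38 window held none of these motifs.

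Cirbp was raised more than any other member. Its log2 values were 9.56, 9.32, 9.47 and 9.51 on the unloaded arrays, against 7.99, 7.94, 8.16 and 8.40 on the weight bearing arrays. Every unloaded array lay above every weight bearing array, and the gap between the groups exceeded the spread within either. The means were 9.47 ± 0.10 in unloaded and 8.12 ± 0.21 in weight bearing muscle (SD over 4 arrays each), a 2.54-fold rise (log2 change 1.34, SE 0.10, limma adjusted p = 1.8e-05). Rbm3, the other cold-inducible protein, was not called. It measured 6.61, 5.56, 6.73 and 6.30 on unloaded arrays and 6.75, 6.08, 6.86 and 6.40 on weight bearing arrays, so the groups overlapped. Replicate 2 was lowest in both groups, and the change was -0.22 with an SE of 0.24 (adjusted p = 0.535), which turned to 0.02 without unloaded replicate 2. The changes of Cirbp and Rbm3 differed by 1.57 (SE 0.29; exact permutation test over arrays, two-sided p = 0.0286, the smallest that 4 against 4 arrays allow). Adjusted over the 7 pairs compared, which were chosen after their values were seen, this p was 0.05 and did not pass the threshold. No larger difference could have given a smaller p, so the test cannot decide whether these changes differ.

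Among the CLK kinases 3 of 4 were higher and 0 lower in unloaded muscle (limma; 3 and 0 unadjusted, 2 and 0 with the t-test), with a median change of 0.26. Of all probe sets 12.8% were higher and 11.0% lower by limma, and 6.57% and 6.48% with the t-test. Unadjusted, 4669 and 3262 of the 21212 probe sets were higher and lower. Clk4 had 9.50, 9.37, 9.44 and 9.37 on unloaded arrays, against 8.99, 8.98, 9.03 and 9.08 on weight bearing arrays. Clk2 had 8.98, 8.96, 9.04 and 9.0 on unloaded arrays, against 8.72, 8.66, 8.62 and 8.71 on weight bearing arrays. For both kinases the groups were apart by more than the spread within them, with rises of 1.32-fold for Clk4 (log2 change 0.40, SE 0.05, adjusted p = 4.0e-04) and 1.25-fold for Clk2 (0.32, SE 0.05, adjusted p = 0.00107). Clk1 rose 1.15-fold (0.21, SE 0.06, adjusted p = 0.0417), with 9.37, 9.34, 9.43 and 9.23 on unloaded arrays and 9.01, 9.12, 9.26 and 9.15 on weight bearing arrays. One weight bearing array, replicate 3, lay above the lowest unloaded array. The call of Clk1 was lost without unloaded replicate 1, 2 or 3 or weight bearing replicate 1, 2 or 4 (adjusted p 0.0694 to 0.107). Clk3 had 8.83 to 8.93 on unloaded and 8.77 to 8.90 on weight bearing arrays and was not called (0.05, SE 0.05, adjusted p = 0.494). The differences between the kinases' changes were also set side by side, and by the exact permutation test over arrays none passed after adjustment. They were 0.36 (SE 0.07) for Clk4 less Clk3, 0.27 (SE 0.04) for Clk2 less Clk3 and 0.20 (SE 0.06) for Clk4 less Clk1, each at the smallest possible p (0.0286 in the exact test, 0.05 adjusted). At that floor a larger difference gives no smaller p, so the test cannot decide these cases. The other differences were 0.16 (SE 0.09) for Clk1 less Clk3, 0.11 (SE 0.08) for Clk2 less Clk1 and 0.09 (SE 0.05) for Clk4 less Clk2, with adjusted p of 0.167, 0.286 and 0.16 by the exact test.

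**Figure D2:**
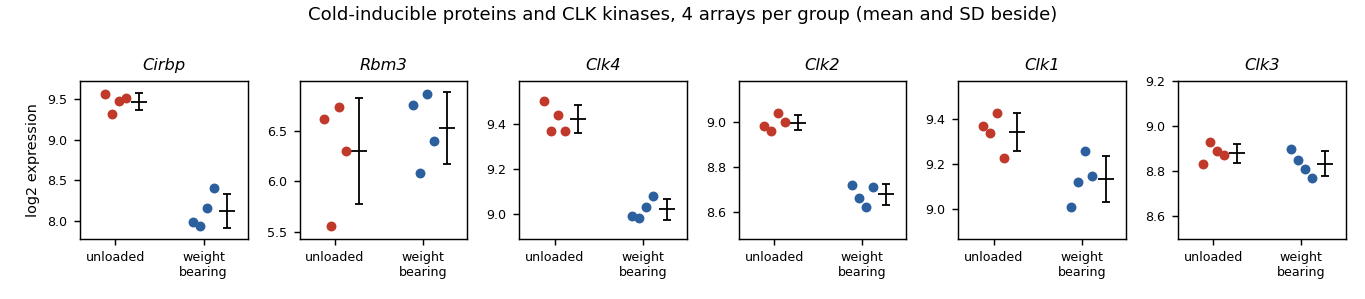
Log2 expression (y axis) of Cirbp, Rbm3 and the 4 CLK kinases on each array, unloaded left of weight bearing, each panel on its own y range, with a bar at the group mean and error bars of 1 SD beside the points (4 arrays each). Unloaded and weight bearing arrays are far apart for Cirbp, apart for Clk4 and Clk2, and overlap for Clk1, Clk3 and Rbm3.

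Of 11 SR proteins 1 was higher and 1 lower (9.09% each), near the 12.8% higher and 11.0% lower of all probe sets, with a median change of -0.04 and a median size of 0.08. Srsf11 was the higher one, with 7.91, 7.86, 7.93 and 7.91 on unloaded arrays, against 7.74, 7.77, 7.79 and 7.73 on weight bearing arrays (1.11-fold, log2 change 0.15, SE 0.04, adjusted p = 0.035). Srsf6 was the lower one, with 8.88, 8.75, 8.71 and 8.78 on unloaded arrays, against 8.96, 9.04, 8.97 and 8.92 on weight bearing arrays (1.14-fold, -0.19, SE 0.05, adjusted p = 0.0241). In both genes the groups did not overlap, although the differences were small. The call of Srsf11 was lost in 6 of the 8 leave-one-out fits (all but those without unloaded replicate 2 and weight bearing replicate 3, adjusted p up to 0.0841). That of Srsf6 was lost without unloaded replicate 2, 3 or 4 or weight bearing replicate 1 or 2 (up to 0.066). The first described SR proteins, Srsf1 (0.08, adjusted p = 0.295) and Srsf2 (-0.01, adjusted p = 0.927), were not called, nor were Srsf4 (-0.04), Srsf5 (0.04), Srsf9 (-0.06) and Srsf10 (-0.04). Srsf3, which also acts in export of mRNA, had the widest difference of the class without a call. It measured 5.97, 5.46, 5.42 and 5.56 on unloaded arrays and 6.00, 5.47, 6.37 and 5.99 on weight bearing arrays (-0.36, SE 0.18, adjusted p = 0.166), and was called only without weight bearing replicate 2 (-0.52, adjusted p = 0.0319). Srsf12 (0.23, adjusted p = 0.0954) was called only without unloaded replicate 1 (0.31, adjusted p = 0.0195). Srsf7 measured 8.19 to 8.32 on unloaded and 8.37 to 8.45 on weight bearing arrays (-0.13, adjusted p = 0.0693), and was called with the intensity trend and without the dimmest 50% of probe sets (adjusted p = 0.0317 for the second).

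Of 19 hnRNPs 2 were higher and 2 lower (10.5% each), also near the shares of all probe sets (12.8% and 11.0%), with a median change of 0.03. Hnrnpu, a nuclear scaffold protein that binds both RNA and chromatin, had 10.66, 10.58, 10.65 and 10.62 on unloaded arrays, against 10.35, 10.40, 10.40 and 10.27 on weight bearing arrays (1.21-fold, log2 change 0.27, SE 0.05, adjusted p = 0.00302). Its relative Hnrnpul1 had 9.73, 9.64, 9.74 and 9.68 on unloaded arrays, against 9.34, 9.36, 9.42 and 9.47 on weight bearing arrays (1.23-fold, 0.30, SE 0.05, adjusted p = 0.00223). The groups of both genes were clearly apart. Hnrnpul2, of the same family, was not called (0.08, SE 0.04, adjusted p = 0.207), although its unloaded arrays (9.28 to 9.34) also lay above its weight bearing arrays (9.20 to 9.27), and a difference between the family members was not tested. Hnrnpdl had 9.44, 9.23, 9.28 and 9.36 on unloaded arrays, against 9.51, 9.56, 9.74 and 9.50 on weight bearing arrays (1.19-fold lower, -0.25, SE 0.07, adjusted p = 0.0242). Hnrnph2 had 7.37, 7.31, 7.31 and 7.41 on unloaded arrays, against 7.65, 7.44, 7.63 and 7.51 on weight bearing arrays (1.16-fold lower, -0.21, SE 0.06, adjusted p = 0.0275). In both falling genes the nearest arrays of the groups lay close together. The call of Hnrnpdl was lost without unloaded replicate 2 or 3 or weight bearing replicate 3 (adjusted p up to 0.0678), and that of Hnrnph2 also without weight bearing replicate 1 (up to 0.0752). Without weight bearing replicate 3 or unloaded replicate 2 no hnRNP was called lower by limma (with all arrays, 4 were lower when p was not adjusted and 0 with the t-test). Their number was 1 without unloaded replicate 3 or weight bearing replicate 1, and 4 without weight bearing replicate 4. The brightest member of the class, Hnrnpk, overlapped between groups (10.69 to 11.03 unloaded, 10.85 to 11.15 weight bearing, -0.13, adjusted p = 0.267), and Hnrnpab did not move past the test (0.04, adjusted p = 0.513). Hnrnpc (-0.15, adjusted p = 0.181) was called only without weight bearing replicate 4 (-0.21, adjusted p = 0.0482), and Hnrnpl (-0.14, adjusted p = 0.182) only without unloaded replicate 3 (-0.20, adjusted p = 0.0386).

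RBM proteins had 6 higher and 2 lower of 34 (17.6% and 5.88%, beside 12.8% and 11.0% of all probe sets), with a median change of 0.04 (0.04 for all probe sets, both to 2 decimals). Rbm33, a protein of RNA export and modification, rose most. It had 8.80, 8.84, 9.0 and 8.81 on unloaded arrays, against 8.45, 8.31, 8.54 and 8.41 on weight bearing arrays (1.35-fold, log2 change 0.43, SE 0.06, adjusted p = 0.00117). Rbm42 had 8.06, 8.09, 8.12 and 8.10 on unloaded arrays, against 7.93, 7.79, 7.86 and 7.90 on weight bearing arrays (1.17-fold, 0.22, SE 0.05, adjusted p = 0.00863). Both genes were higher on every unloaded array. Rbm20 and Rbm24 are striated muscle splicing factors, and Rbm20 acts on the titin transcript. Rbm20 had 8.73, 8.77, 8.84 and 8.88 on unloaded arrays, against 8.53, 8.51, 8.62 and 8.68 on weight bearing arrays (1.17-fold, 0.22, SE 0.06, adjusted p = 0.0192). Rbm24 had 10.51, 10.44, 10.68 and 10.57 on unloaded arrays, against 10.29, 10.28, 10.38 and 10.36 on weight bearing arrays (1.17-fold, 0.22, SE 0.06, adjusted p = 0.022). The groups of both muscle factors did not overlap, with a narrow gap between them. Their calls were lost without unloaded replicate 3 or 4 or weight bearing replicate 1 or 2, at adjusted p up to 0.0549 for Rbm20 and 0.0582 for Rbm24. Rbm5, a regulator of splicing in apoptosis genes, rose 1.10-fold (0.14, SE 0.04, adjusted p = 0.0494) and lost its call in each of the 8 leave-one-out fits (adjusted p 0.0661 to 0.121). Rbm48, a component of the minor spliceosome, rose 1.17-fold (0.22, SE 0.07, adjusted p = 0.0375), with 6.67 on the lowest unloaded and 6.69 on the highest weight bearing array, and lost its call without unloaded replicate 1, 2 or 3 or weight bearing replicate 1, 2 or 4 (up to 0.0942). Without unloaded replicate 3 or weight bearing replicate 1 or 2 the class had 2 higher members, and without unloaded replicate 4, 3.

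The falling RBM proteins were Rbm38 and Rbm43. Rbm38, which binds the mRNA of the cell cycle inhibitor p21 and takes part in myogenic differentiation, had 10.60, 10.69, 10.48 and 10.54 on unloaded arrays, against 10.88, 10.80, 10.87 and 10.93 on weight bearing arrays. Every unloaded array was below every weight bearing array, a 1.22-fold fall (log2 change -0.29, SE 0.06, adjusted p = 0.00496). Rbm43 had 6.00, 6.13, 6.02 and 6.21 on unloaded arrays and 6.54, 6.38, 6.15 and 6.41 on weight bearing arrays (1.22-fold lower, -0.28, SE 0.08, adjusted p = 0.0331). Unloaded replicate 4 lay above weight bearing replicate 3, and the call was lost without unloaded replicate 1, 2 or 3 or weight bearing replicate 1, 2 or 4 (adjusted p up to 0.0838), which left 1 lower RBM protein. Rbm15 (0.14, adjusted p = 0.0656) and Rbm22 (0.14, adjusted p = 0.056) just missed the threshold. Rbm15 was called with the intensity trend (adjusted p = 0.0465), with quantile normalization (0.0389), without the dimmest 25% or 50% of probe sets (0.0478 and 0.0313) and without weight bearing replicate 3 (log2 change 0.17, adjusted p = 0.0429). Rbm22 was called with the intensity trend (adjusted p = 0.0338), with array weights (0.0473) and without the dimmest 25% or 50% (0.0394 and 0.0235). Rbm39 was not called (0.03, adjusted p = 0.728). Rbm4 (-0.01) was not called, while Rbm4b, its near copy next to it on chromosome 19, had a change of 0.15 (adjusted p = 0.0568). Whether probes are shared between near copies such as these, or Hnrnph1 and Hnrnph2, is not stated in the sources at hand, and their values are uncertain.

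**Figure D3:**
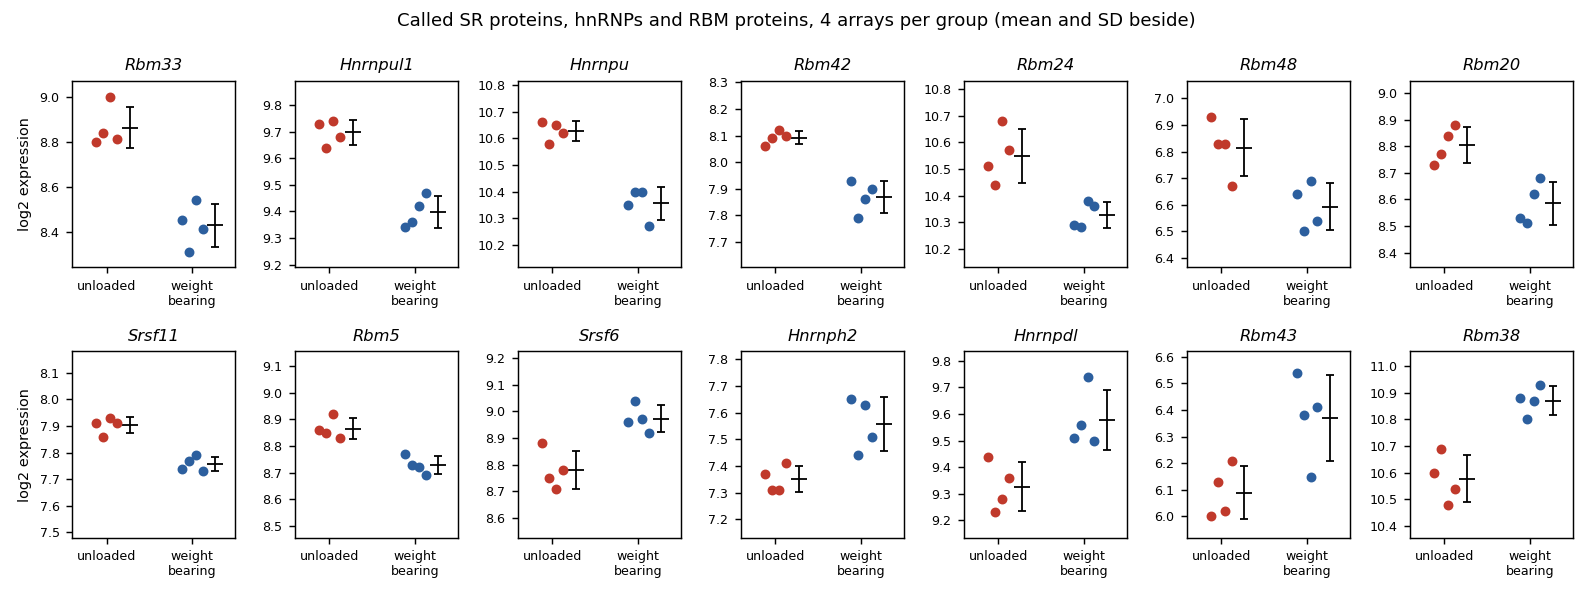
Log2 expression (y axis, each panel on its own range) of the called SR proteins, hnRNPs and RBM proteins on each array, unloaded left of weight bearing, ordered by the size of the rise, with the mean and 1 SD beside the points (4 arrays each). The groups overlap for Rbm48 and Rbm43 and are apart for the others, furthest for Rbm33 among those that rose.

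Set side by side, SR proteins, hnRNPs and RBM proteins lay close to the centre of all probe sets, and the CLK kinases above it. The median change was 0.26 for CLK kinases, 0.04 for RBM proteins, 0.03 for hnRNPs and -0.04 for SR proteins, beside 0.04 for all probe sets. Changes above 0 were seen in 4 of 4 CLK kinases, 23 of 34 RBM proteins, 10 of 19 hnRNPs and 4 of 11 SR proteins. Among all 21212 probe sets 13023 had a change above 0, so most genes leaned this way. The class medians were also taken on each array, as differences from the weight bearing mean of each gene. For CLK kinases they were 0.27, 0.24, 0.33 and 0.21 on unloaded arrays, against 0.01, -0.01, -0.01 and 0.02 on weight bearing arrays. For RBM proteins they were 0.09, 0.11, 0.05 and 0.04 on unloaded arrays, against 0.02, -0.02, 0.04 and -0.01 on weight bearing arrays, so the unloaded medians were higher, if barely. For hnRNPs they were 0.05, -0.06, 0.06 and 0.00 on unloaded arrays, against 0.02, -0.02, 0.05 and -0.05 on weight bearing arrays. For SR proteins they were 0.02, -0.03, -0.08 and -0.06 on unloaded arrays, against 0.01, -0.001, 0.03 and -0.03 on weight bearing arrays. The hnRNP and SR medians overlapped between the groups. The median over all probe sets was itself 0.01, 0.04, 0.06 and 0.04 on unloaded arrays, against 0.01, -0.004, -0.01 and 0.01 on weight bearing arrays, so the RBM medians lay close to it. These medians are descriptions of the listed genes and were not tested.

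**Figure D4:**
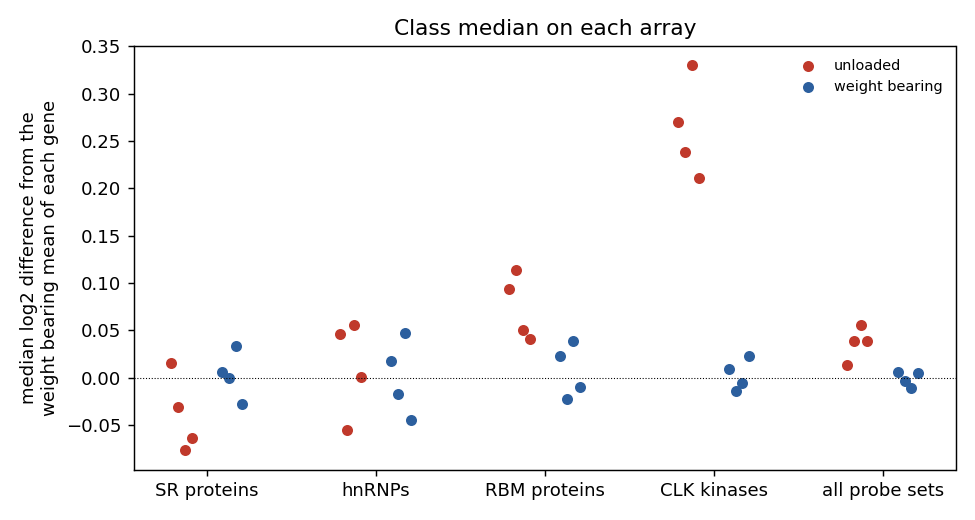
Median log2 difference from the weight bearing mean (y axis) of the SR proteins, hnRNPs, RBM proteins, CLK kinases and all probe sets on each array, unloaded left of weight bearing. Only the CLK medians (0.21 to 0.33 on unloaded arrays) lie well away from 0.

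The study lists genes whose promoter region had a Bcl-3 peak increased in unloaded over weight bearing muscle, and 15 members are on that list. The list is thus itself a comparison of the 2 conditions. How many of all probe sets are on it was not counted, so whether 15 is many or few is not known here. Of these 2 were higher and 1 lower (13.3% and 6.67%), against 11 higher and 4 lower of the 54 members not on it (20.4% and 7.41%), with medians of 0.03 and 0.04. Among all probe sets 12.8% were higher and 11.0% lower, and no difference between listed and unlisted members was tested. The called members on the list were Cirbp and Clk1, which rose, and Rbm38, which fell. The others on it were Srsf1, Srsf2, Srsf7, Hnrnpc, Hnrnpk, Hnrnpl, Hnrnpll, Hnrnpul2, Rbm4, Rbm15, Rbm22 and Rbm39, of which Hnrnpll had a change of 0.04 (adjusted p = 0.571).

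Other genes of the splicing machinery were counted from lists. Of 52 measured core spliceosome genes 13 were higher and 4 lower (25% and 7.69%, median change 0.08), beside 12.8% and 11.0% of all probe sets, a background that holds for each list here. The risers with the largest changes were the U5 particle GTPase Eftud2 (0.36, adjusted p = 7.3e-04), the helicases Snrnp200 (0.35, adjusted p = 0.00114) and Ddx46 (0.35, adjusted p = 0.00274) and the U2 protein Snrpb2 (0.30, adjusted p = 0.00347). The members that fell were Sf3a1 (-0.31, adjusted p = 0.0038) and Snrpa1 (-0.29, adjusted p = 0.0167) of the U2 particle, Snrpc of the U1 particle (-0.25, adjusted p = 0.0269) and U2af1l4 (-0.17, adjusted p = 0.0204). Genes of the same particle thus moved in opposite directions. Of 59 other splicing regulators 15 were higher and 6 lower (25.4% and 10.2%, median 0.08). Higher ones included Srrm1 (0.32, adjusted p = 0.0026), a coactivator that works with SR proteins, and Celf3 (0.32, adjusted p = 0.0272), at low means of 5.51 and 5.19. The muscle regulators Rbfox1 (0.30, adjusted p = 0.00131) and Mbnl1 (0.25, adjusted p = 0.00235) also rose. The other Mbnl and Rbfox genes on the list, with changes from -0.09 to 0.10, were not called. Lower ones were led by Khdrbs3 (-0.52, 1.43-fold, adjusted p = 7.7e-04), Rbms3 (-0.40, adjusted p = 0.015), the SR-related Tra2a (-0.39, adjusted p = 0.00122) and Qk (-0.30, adjusted p = 0.00669). Of 17 measured genes on a list of other kinases, phosphatases and nuclear importers 4 were higher and 2 lower (23.5% and 11.8%, median 0.01). Ppp1ca, a catalytic subunit of protein phosphatase 1 (0.38, adjusted p = 4.5e-04), Akt1 (0.30, adjusted p = 0.00352), the importer Tnpo2 (0.22, adjusted p = 0.0172) and the kinase Dyrk1a (0.17, adjusted p = 0.0373) rose, while Ppp1r10 (-0.36, adjusted p = 0.00557) and Dyrk2 (-0.33, adjusted p = 0.0442) fell. The importers Tnpo1 (0.01, adjusted p = 0.899) and Tnpo3 (-0.08, adjusted p = 0.269) were not called. The dedicated SR protein kinases Srpk1 (-0.15, adjusted p = 0.0791), Srpk2 (-0.06) and Srpk3 (-0.16, adjusted p = 0.0939) were not called, and a difference between them and the CLK kinases was not tested.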

How the data were processed

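Total RNA of 8 mice (4 unloaded, 4 weight bearing) was measured on Affymetrix Mouse Gene 1.0 ST arrays. The authors applied robust multi-array analysis (RMA; background correction, quantile normalization and probe summary over all arrays) with a Brainarray custom probe set definition and deposited log2 values for 21212 probe sets. Neither the release nor the build behind that definition is stated in the sources at hand. The deposited log2 values were used as given, with all 8 columns used and 0 left unused. No array pair held identical values. Array number limits the precision.

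Symbols came from RefSeq by Entrez ID or, where RefSeq gave none, from the platform annotation. The platform annotation held a symbol for 18792 probe sets. RefSeq alone named 1917 more, 3 of them members, and 503 probe sets stayed unnamed. Hnrnpa3, Hnrnpf, Rbm15b, Rbm31y and Hnrnpa1l2-ps2 meet the symbol rule and are not analysed here. Groups were compared with limma 3.58.1 (lmFit, eBayes, two-sided, R 4.3.3) and Benjamini-Hochberg adjustment over all probe sets, and the fit was tested on simulated data. Permutation, sequence and figure steps used Python 3.11.15, pandas 2.3.3, numpy 2.4.6, scipy 1.17.1 and matplotlib 3.10.9. A fold is 2 raised to the log2 change. The unequal-variance t-test with the same adjustment stands for the methods' test. Other alternatives were an intensity trend with robust variance, array weights, quantile normalization, array medians set to 0, filters that dropped the dimmest 25% or 50% of probe sets, a block for the replicate number, fits without each array, a minimum of 1.2-fold, and a wider Rbm rule. Leave-one-out values for members and classes are given; genes of the other lists were fitted with all arrays only.

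The members and all lists were chosen with earlier results of these data known. The text names Cirbp, Rbm3, every Clk and Srsf gene, of hnRNPs and of RBM proteins up to 8 rises and 8 falls among called members whose groups did not overlap, the brightest 3 of each class, members with a listed Bcl-3 promoter peak, and up to 4 rises and 4 falls of each other list. Rbm43, Rbm48, Rbm4b, Hnrnph1, Hnrnpa1l2-ps, the Srpk genes, Tnpo1 and Tnpo3 fall outside this rule. So do the Mbnl and Rbfox genes other than Mbnl1 and Rbfox1, and members with an outlying array. All of these were named after their values were seen. Promoter windows came from RefSeq (GRCm38.p6), and their motifs were searched on both strands. Planned protein sequence features were not computed.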

Additional observations from a re-analysis of the deposited data

Results flagged for a closer look

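In 138 groups of 4 arrays (69 members, 2 groups), 6 arrays stood apart from the other 3 of their group by a gap above Dixon's critical value for 4 arrays (the gap to the nearest array over the group's range), and chance alone gives about 1 in 20. Rbm17 was 7.58 on unloaded replicate 3, against 8.02 to 8.04 on the other unloaded arrays. Hnrnpa1 was 9.18 on unloaded replicate 3, with 9.08 to 9.09 on the others. Rbm18 was 8.92 on unloaded replicate 2 (others 9.05 to 9.07), Rbm25 was 8.23 on unloaded replicate 4 (others 8.32 to 8.34) and Rbm7 was 7.45 on unloaded replicate 1 (others 7.37 to 7.38). Hnrnpd was 9.51 on weight bearing replicate 3, with 9.23 to 9.28 on the others. None of these genes was called by limma.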

How the results depend on the processing

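Of the 18 called members, 7 (Cirbp, Clk2, Clk4, Hnrnpu, Hnrnpul1, Rbm33 and Rbm38) kept their call in every alternative. The unequal-variance t-test kept 12 of 18, array weights 17, array medians set to 0 15, the replicate block 16, and the minimum of 1.2-fold 8. The intensity trend, quantile normalization and the filter on the dimmest 25% kept all 18, and the filter on the dimmest 50% kept the 17 still tested. Calls were gained for Rbm15, Rbm22 and Srsf7 with the intensity trend and without the dimmest 50%, for Rbm15 and Rbm22 without the dimmest 25%, for Rbm22 with array weights and for Rbm15 with quantile normalization. By the t-test 2 members, 0 hnRNPs and 1 RBM protein were lower. At 1.2-fold or more 6 members and 1 RBM protein were higher, 2 members lower, 0 SR proteins higher, 0 SR proteins lower and 0 hnRNPs lower. Lower SR proteins numbered 2 with the intensity trend and 2 without the dimmest 50%. Same-numbered arrays deviated together with r of 0.0242, 0.0366, 0.12 and 0.0954, and 3 of 4 unloaded arrays correlated best with their own number. These values do not settle whether the arrays were paired, and what the numbers mark is not stated in the sources at hand. The limma adjusted p of Rbm3 went from 0.535 to 0.084 with the block for the replicate number, so Rbm3 stayed uncalled. With the replicate block 0 SR proteins were higher, since Srsf11 (adjusted p = 0.0717) lost its call, as did Rbm5 (0.0851). Leaving out each array in turn gave 7 to 13 higher and 1 to 6 lower members, 0 to 1 higher and 0 to 1 lower SR proteins, 0 to 4 lower hnRNPs, and 2 to 6 higher and 1 to 2 lower RBM proteins. The class medians kept their sign in every alternative run. Among the 39 named members, the uncalled changes that turned sign were those of Rbm4 under quantile normalization (0.013) and, over the leave-one-out fits, Rbm3 (-0.369 to 0.024), Rbm4 (-0.068 to 0.055), Srsf10 (-0.099 to 0.008), Srsf2 (-0.018 to 0.016) and Srsf5 (-0.053 to 0.097). Sign changes of the other members were not tabulated, and the causes were not tested. No gene of these classes had several probe sets, so averaging them gave no value. With 4 arrays per group a small change can be missed.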
